A study of Mus musculus with 4 samples.

Results

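Of 16076 nuclei kept from 4 mouse brain libraries, 509 were chosen here by transcripts of Hs3st4, Tle4 and Foxp2, 3 genes used to mark corticothalamic excitatory neurons of cortical layer 6. A nucleus was chosen when it had at least 1 unique transcript tag (UMI) of Slc17a7, none of Gad1, Gad2 or Gabra6, and at least 3 UMIs summed over Hs3st4, Tle4 and Foxp2. That sum also had to exceed the sum of Cux2 and Rorb, markers of upper layers. Only barcodes with at least 500 UMIs and under 5% of UMIs on mitochondrially encoded genes entered. The chosen nuclei were 509 of the 2023 kept nuclei that passed the limits on Slc17a7, Gad1, Gad2 and Gabra6 alone. Most of them did not fall in the cluster that carried further markers of the cell type that the 3 genes are used to mark, as described below. They are therefore called the Hs3st4, Tle4 and Foxp2 nuclei, or the selected nuclei.

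The libraries were made from hemispheres, frozen at postnatal day 14, of the brains of mice of the C57BL/6 strain, and nuclear RNA was captured in droplets and tagged at its 3′ end. The 2 conditional knockout libraries (cKO) had the genotype Slc17a6-Cre, Ago2 flox/flox, and the 2 wild-type libraries (WT) had Slc17a6-Cre, Ago2 wt/wt, so both groups carried the Cre transgene. Per the series' design text, the cross was meant to remove Ago2, the slicing Argonaute protein of the microRNA pathway, from excitatory neurons that express Slc17a6 (Vglut2), in order to learn what Ago2 does in the central nervous system. The design text speaks of cortical cells, while the protocol describes whole hemispheres. The labels do not say that the 2 libraries of a genotype came from separate animals, so each p below measures the spread between libraries, which may be technical.

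Layer 6 corticothalamic neurons send their axons to the thalamus and return cortical output to the relay nuclei that feed the cortex. Tbr1, a T-box transcription factor, and Tle4, a Groucho-type co-repressor, are known for specifying and maintaining their identity, Foxp2 is a forkhead transcription factor of deep layers, and Hs3st4 encodes a heparan sulfate sulfotransferase. Slc17a7 (Vglut1) encodes the vesicular glutamate transporter of most cortical excitatory neurons, and Slc17a6 (Vglut2) that of most thalamic ones. In the GRCm38 build, Hs3st4 lies on chromosome 7 (123982869 to 124398989, plus strand), Tle4 on chromosome 19 (14448150 to 14598051, minus strand), Foxp2 on chromosome 6 (14901349 to 15441977, plus strand) and Tbr1 on chromosome 2 (61802930 to 61814114, plus strand).

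The selected nuclei numbered 75 and 74 in cKO replicates 1 and 2, against 96 and 264 in WT replicates 1 and 2. WT replicate 2 thus gave more than the other 3 libraries together. Whole libraries held 10845009 and 11439733 UMIs in cKO, against 13107920 and 29317266 UMIs in WT. The selected nuclei held 374675 and 457670 of these UMIs in cKO, and 542226 and 2261790 in WT. The median selected nucleus had 4018 and 5758 UMIs in cKO, against 5064 and 7969 UMIs in WT, with 1909 and 2254.5 genes in cKO and 2194 and 2823 genes in WT. No barcode string was shared between libraries among the selected nuclei (0, against 37 over all barcodes). WT replicate 1 stood apart in mitochondrially encoded transcripts, with a median of 0.121% and 0.0979% of UMIs per selected nucleus in cKO, against 0.421% in WT replicate 1 and 0.0669% in WT replicate 2.

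The rule was met with a wide margin by some nuclei and just met by others. The sum of Hs3st4, Tle4 and Foxp2 had a median of 10 UMIs and reached 83 UMIs. It was exactly 3 UMIs in 69 nuclei, 4 UMIs in 48 and at least 10 UMIs in 271. All 3 genes were detected in 172 nuclei, Hs3st4 alone in 112, and 46 nuclei had no Hs3st4 UMI. Just outside the threshold stood 106 nuclei with 2 UMIs, and 159 nuclei with 3 or more were left out by their Cux2 and Rorb. Levels are given as CPM, the UMIs of a gene per 1000000 UMIs summed over the same nuclei of a library. Syt6, a synaptotagmin of layer 6 corticothalamic neurons that the rule did not use, had 15.7 CPM in nuclei with exactly 3 UMIs, 39.6 CPM in the nuclei just outside and 60.0 CPM in those with 4 or more. Sulf1, which encodes an extracellular heparan sulfate sulfatase, had a lower level just inside the threshold than just outside (34.9 CPM), though its UMIs were found in more of the nuclei inside (8.70%, against 4.72% outside). Bcl11b (260 CPM inside, 198 CPM outside), Garnl3 (310 and 265 CPM), Cdh18 (579 and 565 CPM) and Tbr1 (12.5 and 11.6 CPM) were higher just inside, so the 6 markers did not all go one way.

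UMIs of the 3 genes were also found in nuclei with markers of another cell type. Among 412 nuclei with at least 3 UMIs of microglia markers and none of Slc17a7, 22.1% had a Hs3st4 UMI, 35.2% a Tle4 UMI and 12.4% a Foxp2 UMI, at a median depth of 1581 UMIs. In the selected nuclei these shares were 91.0%, 63.1% and 53.6%, at a median depth of 6408 UMIs. After each nucleus was thinned to 1000 UMIs, which left out 2 selected and 52 microglia-marker nuclei, Hs3st4 was found in 67.5% of selected and 11.4% of microglia-marker nuclei, and Foxp2 in 26.0% and 5.83%. Tle4 was then found in 24.3% of selected and 22.2% of microglia-marker nuclei. At equal depth a Tle4 UMI was thus about as frequent in microglia-marker nuclei as in the selected ones. Whether these UMIs came from free RNA or from the nuclei themselves was not tested.

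The values that the rule fixed are given as a description, with no test. They are set beside 506 upper-layer nuclei, chosen with the same limits but with at least 3 UMIs of Cux2 and Rorb that exceeded the sum of the other 3 genes. Hs3st4 had 1657 and 2078 CPM in the selected nuclei of cKO, and 1877 and 1468 CPM in those of WT, against 249 and 143 CPM (cKO) and 243 and 207 CPM (WT) in upper-layer nuclei. Tle4 averaged 310 ± 38.2 CPM and Foxp2 387 ± 63.9 CPM over the 4 libraries, against 59.0 ± 8.84 and 37.3 ± 8.93 CPM in upper-layer nuclei (SD, n = 4).

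Markers that the rule did not use are still not independent of it, because the same nuclei were chosen, but they show which identity came along. Syt6 had 69.4 and 72.1 CPM in selected cKO nuclei and 77.5 and 45.5 CPM in selected WT nuclei, and averaged 2.94 ± 2.32 CPM in upper-layer nuclei (SD, n = 4). Every library was higher in the selected nuclei. Bcl11b (Ctip2), a zinc finger transcription factor of neurons that project out of the cortex, averaged 295 ± 46.7 CPM in the selected and 46.6 ± 23.0 CPM in upper-layer nuclei. Zfpm2 (Fog2), a cofactor of GATA transcription factors, averaged 812 ± 100.1 CPM against 245 ± 45.1 CPM.

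Tbr1 did not follow. It had 18.7 and 4.37 CPM in selected cKO nuclei and 9.22 and 10.2 CPM in selected WT nuclei, against 5.42 and 11.2 CPM (cKO) and 10.6 and 6.15 CPM (WT) in upper-layer nuclei. The selected nuclei were higher in only 2 of the 4 libraries, and a Tbr1 UMI was found in 6.68% of selected, 5.14% of upper-layer and 0.243% of microglia-marker nuclei. Ntsr1, a neurotensin receptor gene widely used to target layer 6 corticothalamic neurons, averaged 9.20 ± 5.44 CPM in the selected and 8.76 ± 8.65 CPM in upper-layer nuclei, from 27 UMIs in all selected nuclei. Of 9 listed layer 6 corticothalamic genes that the rule did not use, 7 were higher in selected than in upper-layer nuclei in all 4 libraries. Of 8 upper-layer genes other than Cux2 and Rorb, 5 were lower and 1 was higher in all 4. Over all 7684 genes with at least 100 UMIs in both sets together, 11.5% were higher and 12.4% lower in all 4 libraries.

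**Figure D1:**
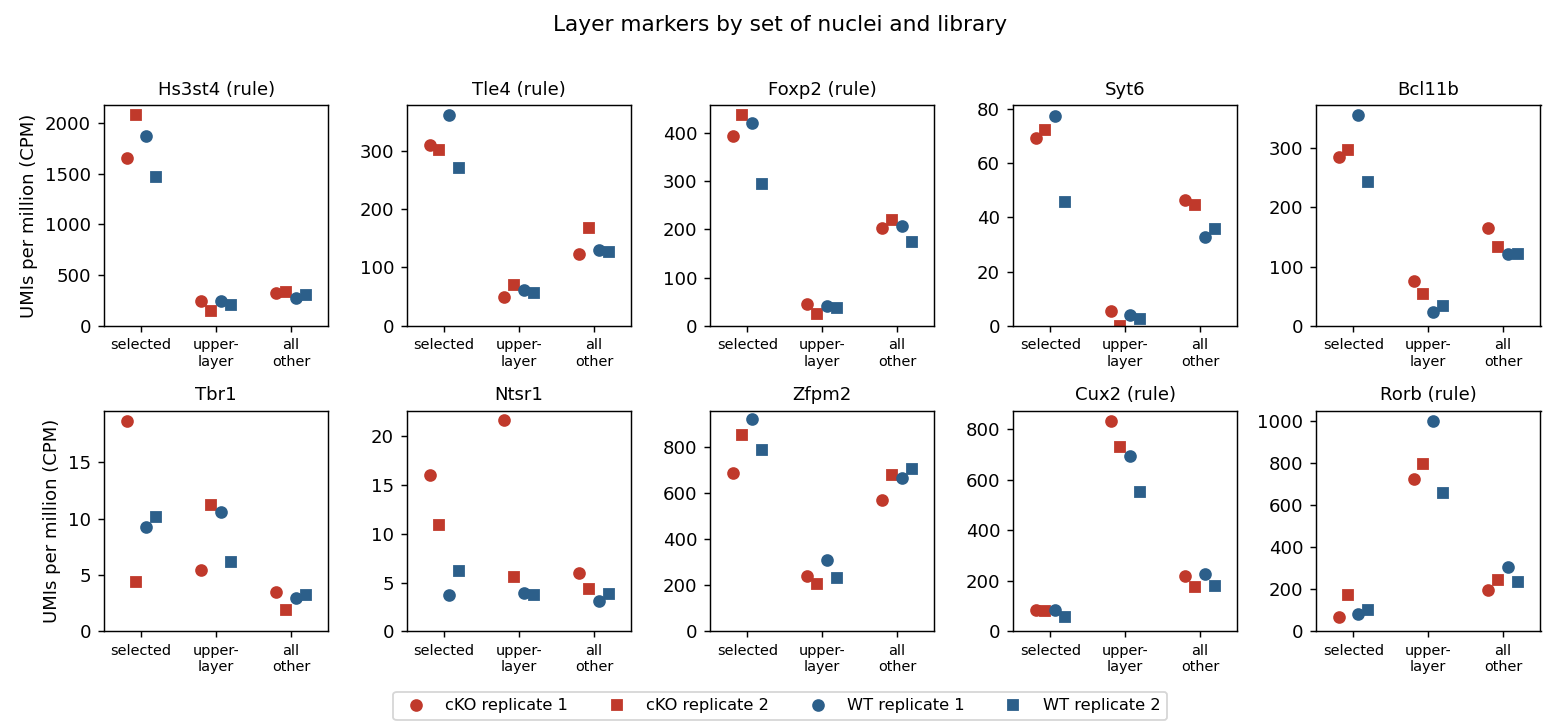
CPM of 10 layer markers in the selected nuclei, the upper-layer nuclei and all other kept nuclei, with 1 point per library (cKO red, WT blue, replicate 1 circles, replicate 2 squares); genes used to choose the nuclei carry the word rule. Syt6 and Bcl11b were higher in the selected than in the upper-layer nuclei in all 4 libraries, while Tbr1 and Ntsr1 overlapped between these sets.

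Among genes of at least 100 CPM, the 12 with the highest ratio of selected over upper-layer nuclei outside the rule were Bcl11b, Sdk2, Rai14, Grik3, Sema3e, Sema5b, Cdh18, Cdh9, Galnt9, Thsd7b, Pcsk5 and Zfpm2. They include adhesion genes (Sdk2, a sidekick immunoglobulin protein, and the cadherins Cdh9 and Cdh18), semaphorins that guide axons and vessels (Sema3e and Sema5b) and a kainate receptor subunit (Grik3). Cdh18 averaged 1470 ± 294 CPM in the selected and 331 ± 75.7 CPM in upper-layer nuclei. Grik3 had 440 and 393 CPM in selected cKO nuclei and 481 and 363 CPM in selected WT nuclei, against 75.8 and 92.2 CPM (cKO) and 86.3 and 66.2 CPM (WT) in upper-layer nuclei. Among the 6 with the lowest ratio were Gpc5, Gm20713, Plpp3, Kitl and Nhsl1. Gpc5 and the astrocyte gene Plpp3 were also higher in all other kept nuclei than in the selected ones, and the summed astrocyte list reached 1116 and 891 CPM (cKO) and 1169 and 881 CPM (WT) in selected nuclei, against 2421 and 2325 CPM (cKO) and 3348 and 1771 CPM (WT) in upper-layer nuclei.

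The selected nuclei split into 8 clusters. Clusters and their genes come from the same counts and got no test. Cluster 1, the largest with 155 nuclei (30.5%), was layer 6 corticothalamic-like: 8 of the 12 listed genes were detected in it, meaning a UMI in at least 10% of its nuclei and a level at least 2-fold above the other selected nuclei. These were Hs3st4, Tle4 and Foxp2, on which the nuclei were chosen, and Tbr1, Syt6, Zfpm2, Sox5 and Garnl3. Of the listed genes not used to choose them, Ntsr1, Rprm and Crym were not detected. Its leading genes by fold were Arhgap25, 2610203C22Rik, Col5a1, Syt6, Sulf1 and Oprm1, the last of which encodes the µ-opioid receptor. Tbr1 had a UMI in 12.3% of cluster 1 nuclei, against 4.24% of the nuclei in clusters 2 to 8. Syt6 had a UMI in 46.5% of cluster 1, against 9.89% of clusters 2 to 8. Fezf2, a zinc finger transcription factor of corticofugal neurons, was not detected in cluster 1 by this rule, and had a UMI in 5.16% of its nuclei.

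The leading genes of cluster 1 were examined library by library. Syt6 had 214 and 202 CPM in cluster 1 of cKO and 151 and 129 CPM in cluster 1 of WT, against 18.1 and 9.71 CPM (cKO) and 37.1 and 18.2 CPM (WT) in clusters 2 to 8. Oprm1 had 366 and 430 CPM in cluster 1 of cKO and 438 and 377 CPM in cluster 1 of WT, against 47.0 and 68.0 CPM (cKO) and 114 and 60.4 CPM (WT) elsewhere. Sulf1 had 153 and 161 CPM in cluster 1 of cKO and 141 and 147 CPM in cluster 1 of WT, against 7.24 and 12.9 CPM (cKO) and 25.7 and 26.4 CPM (WT) elsewhere. These 3 genes, chosen for their fold, were above clusters 2 to 8 in all 4 libraries. Of the 9 listed layer 6 corticothalamic genes outside the rule, 6 were above in all 4, and Tbr1, Crym and Fezf2 were not. Tbr1 had 50.9 and 13.5 CPM in cluster 1 of cKO and 5.22 and 25.1 CPM in cluster 1 of WT, against 7.24 and 0 CPM (cKO) and 11.4 and 5.28 CPM (WT) elsewhere, so WT replicate 1 went the other way. Bcl11b was lower in cluster 1 in cKO replicate 1 (234 CPM, against 304 CPM elsewhere).

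The share of nuclei in cluster 1 moved with the number of rule UMIs, which were among the counts clustered. Of the nuclei with exactly 3 such UMIs, 3 of 69 (4.35%) lay in cluster 1, and of those with 4 UMIs, 0 of 48. With 5 to 9 UMIs 9 of 121 nuclei (7.44%) lay in it, with 10 to 19 UMIs 28 of 107 (26.2%), and with 20 to 83 UMIs 115 of 164 (70.1%). The median depth of these bins was 3818, 5759, 5860, 6448 and 7465 UMIs per nucleus, so depth moved with the bins. Whether nuclei with few rule UMIs outside cluster 1 were of the same type as cluster 1 was not tested.

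Of the other clusters, 5, 6 and 7 carried markers of other neuron kinds, and the rest could not be named. Cluster 6 (25 nuclei) was near-projecting-like, a layer 5 and 6 type whose axons stay close: all 6 listed genes were detected, among them Vwc2l in 92.0% of its nuclei and Tshz2 in 25 of 25. Cluster 7 (21 nuclei) was striatal spiny neuron-like, with 9 of 11 listed genes detected, among them Rgs9 in 76.2% and the dopamine receptor gene Drd1 in 23.8% of its nuclei. It had 0 nuclei in cKO replicate 1. Spiny neurons are GABAergic, and these nuclei passed the limit on Gad1 and Gad2 at a median depth of 4160 UMIs. Foxp2 is itself expressed in striatal spiny neurons, and it had a UMI in 66.7% of cluster 7. Cluster 5 (61 nuclei) was hippocampal-like, with Zbtb20, Man1a, Fibcd1 and Wfs1 detected out of 8 listed genes. Zbtb20, a transcription factor known for hippocampal fate, had a UMI in 98.4% of its nuclei.

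Clusters 2, 3, 4 and 8 stayed unnamed. Cluster 2 (89 nuclei) had 5 of 8 thalamic genes, with Slc17a6 among its 10 leading genes and in 31.5% of its nuclei, but also 4 of 10 upper-layer and 4 of 9 cerebellar granule genes. Cluster 3 (78 nuclei) held 13 of the 28 likely doublets and had 4 of 8 oligodendrocyte genes, among them Mbp, with Itpr2, Filip1, Kank1 and Abi3bp in the lead. Cluster 4 (64 nuclei) had Syt6 in 1.56% of its nuclei, and 3 genes each of the upper-layer and the layer 5 extratelencephalic lists. Cluster 8 (16 nuclei) was led by Irx2 and Hoxb3, homeobox genes known from hindbrain patterning, and had Slc17a6 in 43.8% of its nuclei, with 5 of 9 cerebellar granule genes detected, the most of any list. The rule, with its limit on Slc17a7, thus also took in nuclei with markers of regions outside the cortex.

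**Figure D2:**
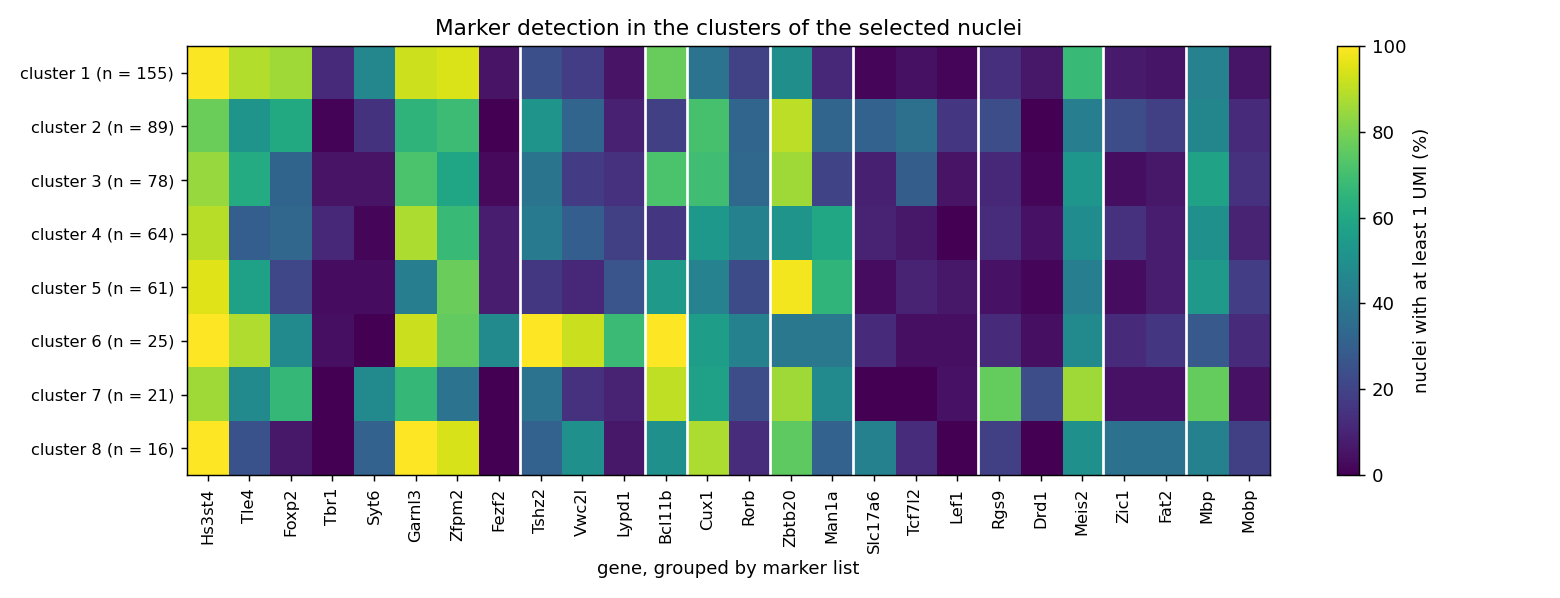
Percent of nuclei with at least 1 UMI of each of 26 marker genes (columns, grouped by marker list with white lines) in clusters 1 to 8 of the selected nuclei (rows, with their number of nuclei). Syt6 is most frequent in clusters 1 and 7, Tshz2 and Vwc2l in cluster 6, Zbtb20 in cluster 5 and Rgs9 in cluster 7.

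Cluster 1 held 20 of 75 and 27 of 74 selected nuclei in cKO, and 34 of 96 and 74 of 264 in WT. Cluster 2 held 15 and 10 nuclei in cKO, against 10 and 54 in WT, and cluster 5 held 6 and 9 in cKO, against 8 and 38 in WT. All clusters except 7 had nuclei from each library. Cluster shares were not tested between genotypes.

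**Figure D3:**
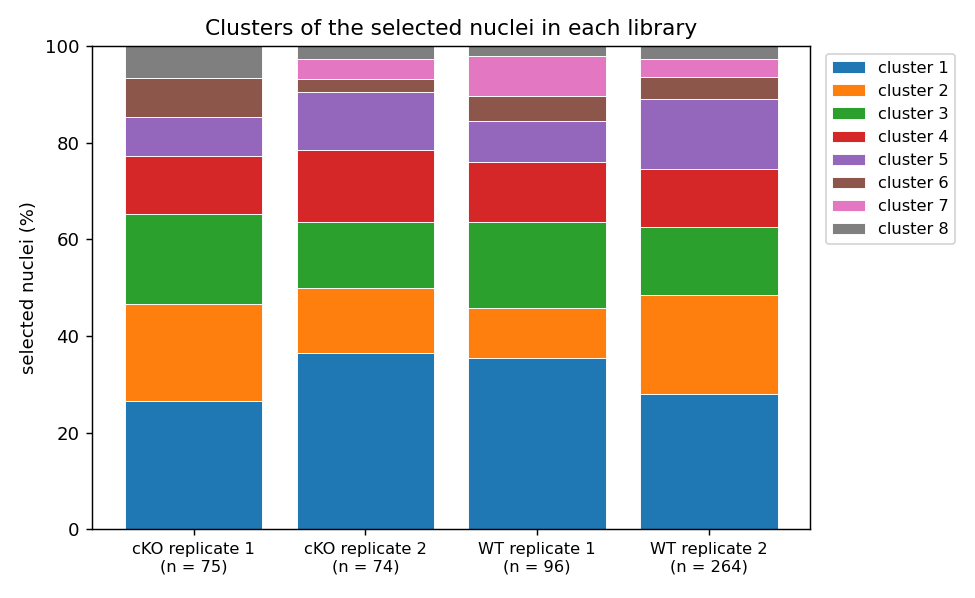
Percent of the selected nuclei of each library in each of the 8 clusters, as stacked bars that sum to 100%, cKO libraries on the left. Cluster 1 is the largest cluster in all 4 libraries and holds between 26.7% and 36.5% of their selected nuclei.

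The share of selected nuclei among all kept nuclei was lower in both cKO libraries, in a design that cannot reach p under 0.05. It was 2.26% (95% exact Clopper-Pearson interval 1.78 to 2.83%) and 2.27% (1.79 to 2.84%) in cKO, against 2.87% (2.33 to 3.49%) and 4.29% (3.79 to 4.82%) in WT. The intervals cover counting error only. The means were 2.27 ± 0.00531% in cKO and 3.58 ± 1.00% in WT (SD, n = 2 each), a difference of -1.31 percentage points (exact permutation test, two-sided, p = 0.333, the smallest that 2 against 2 libraries allow). It was -2.02 without WT replicate 1 and -0.60 without WT replicate 2. Once every nucleus was thinned to 1000 UMIs before the rule was applied, the shares were 0.413 ± 0.033% in cKO and 0.381 ± 0.207% in WT, from 12 and 13 nuclei in cKO and 7 and 31 in WT, and the difference turned to 0.032 percentage points (exact permutation p = 1). The lower share in cKO was not seen in this setting, where the WT shares (0.235% and 0.527%) lay on either side of those of cKO (0.390% and 0.437%). The exact intervals were 0.202 to 0.680% and 0.233 to 0.746% in cKO, against 0.0944 to 0.483% and 0.359 to 0.748% in WT. They overlapped, so with so few nuclei this setting cannot decide whether the difference stays at equal depth.

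Relative to selected and upper-layer nuclei together, the selected nuclei made up 52.1% and 51.4% in cKO, against 43.2% and 52.3% in WT. The groups overlapped (difference of means 3.98 percentage points, exact permutation p = 1), and without WT replicate 1 the difference was -0.54. Cluster 1 alone made up 0.604% and 0.828% of all kept nuclei in cKO, against 1.02% and 1.20% in WT (exact permutation p = 0.333). The median depth of the selected nuclei differed by -1628.5 UMIs between cKO and WT means (exact permutation p = 0.667).

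Ago2 itself was not lower in the selected nuclei of cKO. It had 82.7 and 80.8 CPM in cKO, against 60.9 and 75.2 CPM in WT (log2 fold change cKO over WT 0.18, SE 0.27, adjusted p = 1.00 by edgeR's quasi-likelihood test). The 3′ tags need not lie in the deleted part of the gene and do not check the deletion. The sequence listed for Cre had 0 UMIs in every library, and the sources used here do not say whether it holds the 3′ end of the transgene, which these tags would need. Slc17a6, whose promoter drives Cre, had 32.0 and 35.0 CPM in cKO, against 25.8 and 21.2 CPM in WT, from 12 and 16 UMIs in cKO and 14 and 48 UMIs in WT. Slc17a7 had 270 and 249 CPM in cKO, against 249 and 214 CPM in WT. The rule required at least 1 Slc17a7 UMI in every selected nucleus, which weighs more in shallower nuclei. Its levels therefore depend on the rule and on depth, and got no test. Whether the allele was recombined in these nuclei cannot be read from these files.

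Between genotypes, 2 genes passed the test in the selected nuclei, Mbp and Cdh9, and both fell in cKO. Counts were summed per library over the selected nuclei and compared by edgeR's quasi-likelihood test over 6554 genes, with Benjamini-Hochberg adjustment and a threshold of 0.05. The 2 calls are 0.0305% of the genes tested, and 0 genes rose. At an unadjusted p under 0.05 there were 290 genes (4.42%), and for 31.9% of genes the 2 libraries of cKO did not overlap the 2 of WT. The median log2 fold change over all genes was -0.000869. The number of calls moved with the libraries used: it was 22 without cKO replicate 1, 91 without cKO replicate 2, 6 without WT replicate 1 and 13 without WT replicate 2.

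Cdh9 encodes a type II cadherin, a calcium-dependent adhesion protein of neurons, and lies on chromosome 15 (16728756 to 16857094, plus strand). It had 90.7 and 114 CPM in cKO, against 269 and 215 CPM in WT, from 34 and 52 UMIs in cKO and 146 and 486 UMIs in WT. Both cKO libraries lay below both WT libraries (log2 fold change -1.25, SE 0.24, adjusted p = 0.0489 by edgeR). A Cdh9 UMI was found in 16 of 75 and 18 of 74 nuclei in cKO, and in 28 of 96 and 103 of 264 nuclei in WT. The call was not past the threshold with DESeq2 (adjusted p = 0.758), without WT replicate 1 (0.279) or without cKO replicate 1 (0.0610). By edgeR it also missed the threshold with relative log expression size factors (adjusted p = 0.0840), without doublets (0.236) and with at least 5 rule UMIs (0.108). The same held at a 1% mitochondrial limit (0.115), without off-type nuclei (0.151) and in nuclei chosen after thinning, tested on their full counts (0.226).

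Inside cluster 1, Cdh9 had 122 and 175 CPM in cKO, against 621 and 441 CPM in WT. In clusters 2 to 8 it had 79.6 and 84.1 CPM in cKO, against 77.0 and 141 CPM in WT, where the groups overlapped. In cluster 1 alone the log2 fold change was -1.81 (unadjusted p = 3.06e-05, adjusted p = 0.0898 over 2936 genes by edgeR). The difference between cluster 1 and the other clusters was not tested. Cluster 5 was the other cluster with high Cdh9, at 333 CPM over all libraries, against 405 CPM in cluster 1.

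Mbp encodes myelin basic protein, a defining product of oligodendrocytes. It had 77.4 and 118 CPM in the selected nuclei of cKO, against 467 and 280 CPM in WT (log2 fold change -1.92, SE 0.27, adjusted p = 0.000411 by edgeR). In WT replicate 1, 148 of the 253 Mbp UMIs lay in 1 nucleus. The highest single nucleus had 3 and 21 Mbp UMIs in cKO replicates 1 and 2, and 54 in WT replicate 2. An Mbp UMI was found in 21 of 75 and 22 of 74 nuclei in cKO, against 46 of 96 and 161 of 264 nuclei in WT.

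No other oligodendrocyte gene passed. The summed level of the 8 listed oligodendrocyte genes, Mbp included, was 152 and 179 CPM in selected cKO nuclei, against 640 and 414 CPM in selected WT nuclei. Without Mbp, the other 7 genes summed to 74.7 and 61.2 CPM in cKO, against 173 and 134 CPM in WT. In all other nuclei the sum over all 8 was 1168 and 1126 CPM in cKO, against 2365 and 1452 CPM in WT. In upper-layer nuclei this sum was 284 and 886 CPM in cKO, against 1147 and 505 CPM in WT, so the genotypes overlapped. Mbp alone had 119 and 509 CPM in upper-layer nuclei of cKO, against 844 and 272 CPM in WT. Its fold change in selected nuclei differed from that in upper-layer nuclei by -1.17 (SE 0.36), which did not pass (adjusted p = 0.835 by edgeR). No gene of the list was at 0 in the selected nuclei, and 3 of the 8 could be tested, Mbp and Mobp among them, all with negative fold changes, of which Mbp alone passed. Mobp had 13.3 and 2.18 CPM in cKO, against 49.8 and 29.2 CPM in WT, and did not pass (adjusted p = 0.331). The part of oligodendrocyte RNA in the Mbp difference was not tested. Mbp was not past the threshold in nuclei with at least 5 rule UMIs (adjusted p = 0.106 by edgeR) or in cluster 1 alone (0.444). It was too low to be tested in the few nuclei chosen after thinning, whose full counts were summed.

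**Figure D4:**
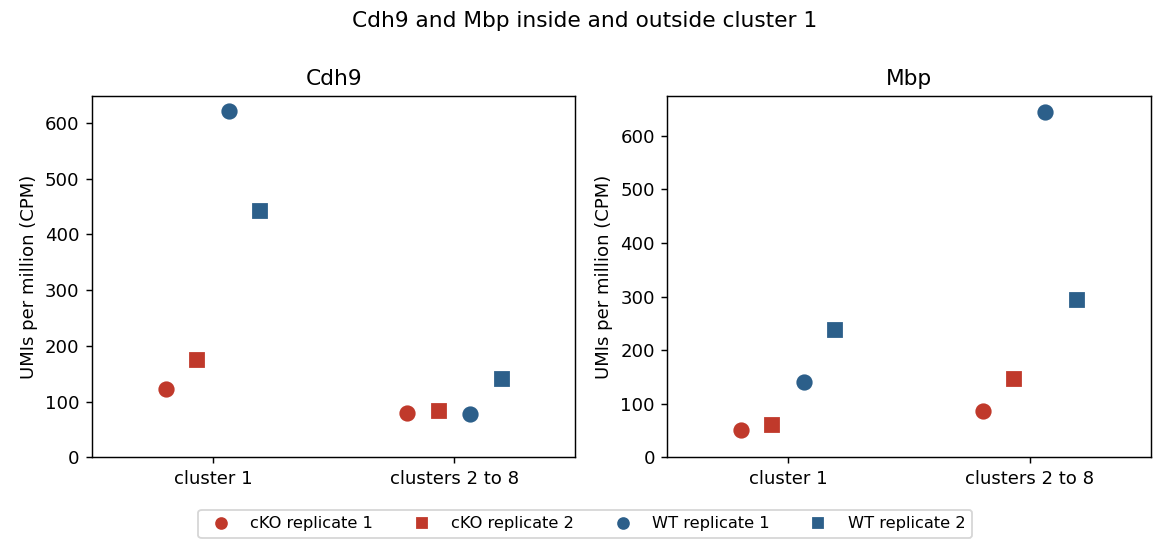
CPM of Cdh9 (left) and Mbp (right) in cluster 1 and in clusters 2 to 8 of the selected nuclei, 1 point per library (cKO red, WT blue). In cluster 1 both genes were lower in both cKO libraries, while Cdh9 overlapped between genotypes in clusters 2 to 8.

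The next 10 genes by p did not pass. Col23a1, a transmembrane collagen gene, had 179 and 135 CPM in cKO, against 86.7 and 55.3 CPM in WT (log2 fold change 1.19, adjusted p = 0.155 by edgeR). Rnf220, a ubiquitin ligase gene, had 53.4 and 39.3 CPM in cKO, against 101 and 111 CPM in WT (-1.26, adjusted p = 0.170). Rxfp1, the relaxin receptor gene, had 6 and 6 UMIs in cKO, against 28 and 106 UMIs in WT (-1.78, adjusted p = 0.277). In each of these 3 genes both cKO libraries lay on the same side of both WT libraries, as for 31.9% of all genes tested. They were picked by p, which favours such a separation.

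Il1rapl2, an interleukin-1 receptor-like synaptic adhesion gene, had 283 and 350 CPM in cKO, against 513 and 615 CPM in WT (log2 fold change -0.87, adjusted p = 0.277 by edgeR). Plce1, a phospholipase C gene, had 144 and 30.6 CPM in cKO, against 27.7 and 20.8 CPM in WT (1.82, adjusted p = 0.257), so that cKO replicate 1 carried most of its difference. Robo3, an axon guidance receptor gene known from midline crossing, had 1 and 3 UMIs in cKO, against 15 and 56 UMIs in WT (2.67 and 6.55 CPM in cKO, 27.7 and 24.8 CPM in WT, adjusted p = 0.475). Bcas1os2, Mobp, Cul4b and 1810013L24Rik were the other 4, all with negative fold changes. Bcas1os2 is named as an opposite-strand transcript of Bcas1, and the strand setting of the counting is not given in the sources used here.

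**Figure D5:**
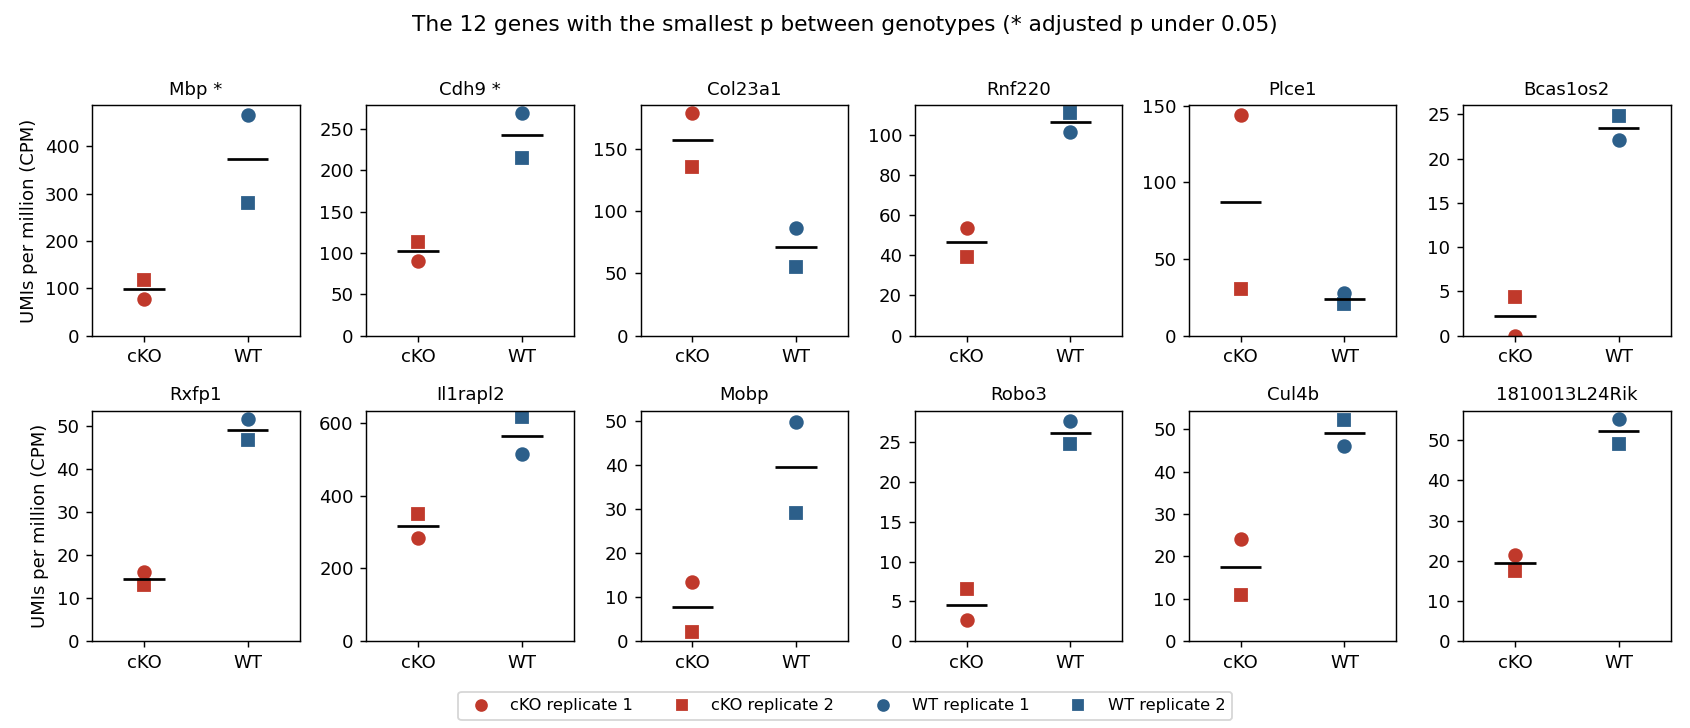
CPM per library of the 12 genes with the smallest p between genotypes in the selected nuclei, cKO on the left and WT on the right of each panel, with the mean of the 2 libraries as a black bar. Mbp and Cdh9 (starred) passed the adjusted threshold. In all 12 genes, picked by p, the 2 cKO points lie on 1 side of the 2 WT points, as for 31.9% of all genes tested.

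Identity genes outside the rule gave no call, where 0.0305% of all genes tested passed. Of the 9 listed layer 6 corticothalamic genes that the rule did not use, 5 had enough counts to be tested. Of these, 3 had positive and 2 negative fold changes, none passed, and the median log2 fold change was 0.17, against -0.000869 over all genes tested. Syt6 had a log2 fold change of 0.28 (SE 0.31), Zfpm2 at -0.18 (SE 0.21), Sox5 at 0.17 (SE 0.20), Garnl3 at -0.18 (SE 0.22) and Crym, a thyroid hormone binding crystallin, at 0.20 (SE 0.41). The signs of all of these but Sox5 changed when some library was left out. Tbr1, Ntsr1, Rprm and Fezf2 were too low to be tested, at 7 and 2 UMIs of Tbr1 in cKO against 5 and 23 UMIs in WT.

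Of 22 corticofugal and deep-layer transcription factors and related genes outside the rule, 19 were tested, with 10 positive and 9 negative fold changes, no call and a median of 0.01. Lmo7 had 109 and 122 CPM in cKO, against 164 and 134 CPM in WT (log2 fold change -0.37). Both cKO libraries lay below both WT libraries for Lmo7. The genotypes did not overlap for 31.9% of all genes tested.

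Synaptic and excitability genes gave no call either. As 0.0305% of all genes tested passed, lists of this size show little by holding none. Glutamate receptor genes had 9 positive and 13 negative fold changes among 22 tested (median -0.05). Of these 22, 2 (9.09%) had an unadjusted p under 0.05 by edgeR, against 4.42% of all genes tested. Grik1, a kainate receptor subunit, had 1113 and 199 CPM in cKO, against 124 and 386 CPM in WT (log2 fold change 1.21), with overlapping groups. Its fold change was -0.43 without cKO replicate 1.

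GABA-A receptor genes had 4 positive and 7 negative fold changes among 11 tested (median -0.10), presynaptic release genes other than Slc17a7 16 and 10 among 26 (median 0.01), and voltage-gated channel genes 16 and 22 among 38 (median -0.08). Gabra5 had 125 and 91.8 CPM in cKO, against 83.0 and 79.1 CPM in WT. Unc13b, a vesicle priming factor, had 294 and 251 CPM in cKO, against 207 and 192 CPM in WT. Kcnd3, an A-type potassium channel gene, had 203 and 245 CPM in cKO, against 308 and 307 CPM in WT (log2 fold change -0.49, unadjusted p = 0.032 by edgeR). It was the only 1 of the 38 channel genes (2.63%) under 0.05 unadjusted, against 4.42% of all genes tested. In Gabra5, Unc13b and Kcnd3 the genotypes did not overlap, as for 31.9% of all genes tested.

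Axon guidance receptors had 16 positive and 10 negative fold changes among 26 tested, with a median of 0.12. No gene passed, and 5 of them (19.2%) were under 0.05 unadjusted, against 4.42% of all genes tested. Robo3 and Sema6a had the smallest p. Sema6a, a transmembrane semaphorin, had 350 and 181 CPM in cKO, against 160 and 158 CPM in WT (log2 fold change 0.67, adjusted p = 0.848). Genes for ligands that act on vessels and axons had 10 positive and 5 negative fold changes among 15 tested (median 0.06). Reln, which encodes the layering protein reelin, had 376 and 111 CPM in cKO, against 166 and 126 CPM in WT (log2 fold change 0.69), and was at -0.33 without cKO replicate 1. Efna5, an ephrin gene, had 352 and 343 CPM in cKO, against 195 and 318 CPM in WT.

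Genes of the microRNA pathway were split evenly, with 9 positive and 9 negative fold changes among 18 tested and a median of 0.03. Ago1, a second Argonaute gene, had 24.0 and 28.4 CPM in cKO, against 48.0 and 39.3 CPM in WT (log2 fold change -0.71, SE 0.39, unadjusted p = 0.079). Cnot2, a subunit of the deadenylase complex that microRNAs recruit, was at -0.48 (SE 0.27). Neither passed.

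Of 3 testable immediate early genes, 2 were positive and 1 negative, and none was under 0.05 unadjusted. Nr4a1 had 90.7 and 45.9 CPM in cKO, against 38.7 and 62.8 CPM in WT, and Homer1 had 125 and 308 CPM in cKO, against 181 and 196 CPM in WT. The groups overlapped in both. Genes that change with postnatal maturation had 8 positive and 8 negative fold changes among 16 tested (median -0.03). Kcna1, a potassium channel gene that rises as neurons mature, had 26.7 and 39.3 CPM in cKO, against 42.4 and 56.2 CPM in WT (log2 fold change -0.65), and Stmn2, a growth-associated tubulin regulator, had 144 and 149 CPM in cKO, against 197 and 173 CPM in WT (-0.36).

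Fkbp5, a co-chaperone gene induced by glucocorticoids, had 66.7 and 94.0 CPM in cKO, against 55.3 and 54.4 CPM in WT (log2 fold change 0.53, SE 0.29, unadjusted p = 0.074, adjusted p = 1.00). Hif3a, another gene known to answer glucocorticoids, was too low to be tested, with 8 and 8 UMIs in cKO and 5 and 10 UMIs in WT (21.4 and 17.5 CPM in cKO, 9.22 and 4.42 CPM in WT). Of the 6 tested genes of the glucocorticoid and fasting list, 4 were positive and 2 negative (median 0.08). Klf9 had 90.7 and 133 CPM in cKO, against 97.8 and 87.1 CPM in WT.

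Mitochondrially encoded genes were negative in 9 of 11 tested, with a median of -0.73, and none passed. Of the 11, 6 (54.5%) were under 0.05 unadjusted, against 4.42% of all genes tested. WT replicate 1 set these values. Mt-Atp6 had 278 and 308 CPM in cKO, against 999.6 and 226 CPM in WT, and its log2 fold change of -1.06 was 0.33 without WT replicate 1. Mt-Cytb had 187 and 177 CPM in cKO, against 575 and 155 CPM in WT, and its fold change of -0.98 was 0.18 without that library.

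Among genes of other cell types, none but Mbp passed, where 0.0305% of all genes tested passed. All 5 tested thalamic genes were positive (median 0.41), 5 of 6 upper-layer genes other than Cux2 and Rorb were positive (median 0.29), and all 3 striatal spiny neuron genes were negative (median -0.30). All 3 near-projecting genes were positive (median 0.78). Over all genes tested, 3270 of 6554 were positive. The sum of the 6 listed near-projecting genes was 1911 and 752 CPM in cKO, against 806 and 755 CPM in WT. Only cKO replicate 1 was high there. The sum of the 8 thalamic genes was 718 and 463 CPM in cKO, against 389 and 450 CPM in WT, again highest in cKO replicate 1. Cluster 7 had 0 and 3 nuclei in cKO, against 8 and 10 in WT. Of the selected nuclei of each library, these were 0% and 4.05% in cKO, against 8.33% and 3.79% in WT, so the genotypes overlapped. Cluster 6 had 6 and 2 nuclei in cKO, against 5 and 12 in WT, and its shares also overlapped. The part of this mixture in the fold changes was not tested.

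Against upper-layer nuclei, the effect of genotype differed for 2 genes, Stac and Ebf3, of 7380 tested (0.0271%), with 347 genes (4.7%) at an unadjusted p under 0.05. In this fit, selected and upper-layer sums of each library were compared with the library as a block. The upper-layer nuclei, named for Cux2 and Rorb, also carried thalamic markers. Their sum of the 8 thalamic genes was 1140 and 416 CPM in cKO, against 716 and 731 CPM in WT. Slc17a6 had 70.4 and 30.7 CPM there in cKO, against 22.6 and 16.1 CPM in WT. The part of such a mixture in the differences below was not tested. Stac, an adaptor protein that binds calcium channels, had 24.0 and 21.9 CPM in selected nuclei of cKO, against 35.0 and 43.8 CPM in WT. In upper-layer nuclei it had 56.9 and 67.1 CPM in cKO, against 11.9 and 10.9 CPM in WT. The fold changes differed by -3.29 on the log2 scale (SE 0.50, adjusted p = 0.00927 by edgeR), and Stac passed neither in selected nuclei (log2 fold change -0.87) nor in upper-layer nuclei (2.40) on its own. The difference did not pass without WT replicate 1, without WT replicate 2, with at least 5 rule UMIs (adjusted p = 0.306 by edgeR) or without off-type nuclei (0.110). Stac was too low to be tested in the nuclei chosen after thinning. Cluster 1 held 3 of the 137 Stac UMIs in selected nuclei, all in WT replicate 2. In upper-layer nuclei 0 of 7113 genes passed by edgeR, with 329 (4.63%) at an unadjusted p under 0.05.

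Ebf3, a helix-loop-helix transcription factor, had 3 and 0 UMIs in selected nuclei of cKO, against 10 and 66 UMIs in WT. In upper-layer nuclei it had 55 and 0 UMIs in cKO, against 13 and 37 UMIs in WT. The difference of -4.76 (SE 0.72, adjusted p = 0.00927 by edgeR) rested on cKO replicate 1, and was -0.57 without it. It did not pass without WT replicate 1 or without WT replicate 2. Ebf3 was too low to be tested without off-type nuclei or in the nuclei chosen after thinning. The unnamed cluster 2 held 70 of the 79 Ebf3 UMIs in selected nuclei, and cluster 1 held 3. Il1rapl2 came next, with a difference of -1.32 (SE 0.24, adjusted p = 0.0556). It was lower in selected cKO nuclei (-0.87) and had 425 and 525 CPM in upper-layer nuclei of cKO, against 289 and 390 CPM in WT. Cdh9 differed by -1.05 (SE 0.42, adjusted p = 0.990), with 21.7 and 58.7 CPM in upper-layer nuclei of cKO, against 37.2 and 46.8 CPM in WT. Its difference from upper-layer nuclei therefore did not pass. The next in this fit, none of which passed, were Chst9 (-2.90, adjusted p = 0.111), Lef1 (2.40) and Trpc7 (-2.40, both adjusted p = 0.425). Lef1, a Wnt pathway transcription factor of the thalamic list, had 50.7 and 28.4 CPM in selected nuclei of cKO, against 7.38 and 16.4 CPM in WT. In upper-layer nuclei it went the other way, with 29.8 and 41.9 CPM in cKO, against 91.6 and 60.0 CPM in WT. Cluster 2 held 60 of the 73 Lef1 UMIs in selected nuclei, and cluster 1 held 3.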

How the data were processed

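The deposited matrices hold counts of UMIs per gene and nucleus barcode, which the authors made with Cell Ranger 4.0.0 on the GRCm38 build, per the submitters' processing notes, which also name Seurat 3.2.3. Intron and strand settings are not given in the sources used here. The files held 17802 barcodes and 32286 features, and no barcode had fewer than 500 UMIs. The 5% mitochondrial limit removed 5.64% and 6.13% of barcodes in cKO, and 17.8% and 8.78% in WT. Total UMIs ran from 10845009 to 29317266 per library, and intervals on shares (95%, exact Clopper-Pearson) cover counting error only.

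The selected nuclei and the gene lists were chosen with earlier results of these data known. UMI counts were summed per library over the selected nuclei and tested with edgeR 4.0.16 (R 4.3.3; filterByExpr, TMM, quasi-likelihood, Benjamini-Hochberg over all genes tested), with genotype as the only term. The difference from upper-layer nuclei was an interaction term with library as a block. Both scripts were tested on simulated data. Single values per library were compared by exact permutation, two-sided. Named genes were those past adjusted p 0.05, filled to 12 by smallest p, the 2 with the smallest p of each function list, the layer 6 corticothalamic list, Ago2, Slc17a6, Slc17a7, Fkbp5 and Hif3a, and the leading genes of the interaction fit. Genes that the selection used got no test. Some genes that these rules pick are not reported here.

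Clusters came from scanpy 1.11.5: counts scaled to 10000 UMIs per nucleus, 2000 variable genes, 30 components, 15 neighbours, Leiden resolution 0.5. Gene locations were taken from GENCODE for GRCm38, matched by gene ID. Doublets were kept in the main analysis. Because the automatic cutoff of Scrublet picked out only 1 to 6 nuclei in a library, an alternative removed the highest scores, at 0.8% per 1000 barcodes (28 selected nuclei). Other alternatives were DESeq2 1.42.0, other size factors, no filter, a replicate block, leaving out each library and at least 5 rule UMIs. Further ones were choice of nuclei after thinning to 1000 UMIs each, a 1% mitochondrial limit and cluster 1 alone. Off-type nuclei, with 2 or more UMIs of thalamic and striatal genes, were also removed. In the thinned setting, genes were tested on the full counts of the chosen nuclei. Cluster 1 alone was added after seeing the data. Also not planned were, for the interaction, thinning, the 1% limit and off-type removal. Off-type removal for shares and depth and thinning for depth were not planned either.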

Additional observations from a re-analysis of the deposited data

Results flagged for a closer look

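The effect of genotype differed between the selected and the upper-layer nuclei for Stac, by -3.29 on the log2 scale (SE 0.50, adjusted p = 0.00927, edgeR interaction test over 7380 genes). Both cKO libraries lay below both WT libraries in selected nuclei (24.0 and 21.9 CPM in cKO, 35.0 and 43.8 CPM in WT) and above them in upper-layer nuclei (56.9 and 67.1 CPM in cKO, 11.9 and 10.9 CPM in WT). In selected nuclei the counts were 9 and 10 UMIs in cKO, and 19 and 99 UMIs in WT. The difference kept its sign without each library (-3.44 to -3.00), with adjusted p = 0.309 without WT replicate 1 and 0.452 without WT replicate 2. It also missed the threshold by edgeR with at least 5 rule UMIs (adjusted p = 0.306) and without off-type nuclei (0.110). Stac was too low to be tested in nuclei chosen after thinning. Cluster 1 held 3 of the 137 Stac UMIs in selected nuclei.

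Ebf3 differed by -4.76 in the same test (SE 0.72, adjusted p = 0.00927). Its 55 UMIs in upper-layer nuclei of cKO replicate 1 stood beside 0 in cKO replicate 2, and the difference was -0.57 (adjusted p = 1.00) without cKO replicate 1. Of its 79 UMIs in selected nuclei, 70 lay in the unnamed cluster 2 and 3 in cluster 1. The upper-layer nuclei also carried thalamic markers, and the part of this in the Stac and Ebf3 differences was not tested.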

How the results depend on the processing

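The 2 calls between genotypes became 1 with DESeq2 (55 genes at an unadjusted p under 0.05), 1 with relative log expression size factors, 1 without doublets, 1 at a 1% mitochondrial limit and 1 without off-type nuclei, each of them Mbp. They became 0 with at least 5 rule UMIs (238 unadjusted by edgeR) and 0 in cluster 1 alone (180 unadjusted). In nuclei chosen after thinning they also became 0 (45 of 1029 genes unadjusted). The count was 20 with no filter on low counts (6 up, 14 down, Mbp and Cdh9 among them) and between 6 and 91 without single libraries. A lone sample is then assumed to vary like the other group. The labels do not say that the replicate numbers pair the samples. Same-numbered deviations had r = 0.033 over 6554 genes. With 2 libraries per group this r is the same for both pairs, and it cannot show how the libraries were paired. A replicate block gave 7 calls (2 up, 5 down). The 2 interaction calls became 9 with no filter, 4 at the 1% mitochondrial limit, 1 in cluster 1 alone, 0 without off-type nuclei (328 unadjusted by edgeR), 0 after thinning (75 unadjusted) and between 0 and 33 without single libraries (0 without WT replicate 1 or WT replicate 2, 170 and 283 unadjusted). The share difference among all nuclei became 0.032 percentage points after thinning, and that among selected and upper-layer nuclei became -1.77 after thinning and ranged from -0.54 to 8.49 without single libraries. Where a cause is not given by the setting itself, the cause was not tested.

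Of the alternative values for single genes, 503 kept direction and side of the threshold, mostly for genes that had not passed in the main fit. Another 20 kept the direction but lost a call, all of them for Mbp, Cdh9 or the differences of Stac and Ebf3. Of these 20, 3 were in cluster 1 alone: Mbp, Cdh9 and the difference of either Stac or Ebf3. A further 43 came to pass the threshold and 19 reversed. In nuclei chosen after thinning the log2 fold changes that reversed were 0.085 (Syt1), 0.62 (Kcnd3), -0.016 (Sox5) and 0.30 (Garnl3). In cluster 1 alone they were -0.033 (Unc13b), -0.052 (Homer1) and -0.059 (Ago2). Without single libraries the ranges that crossed 0 were -0.43 to 2.32 (Grik1), -0.33 to 1.29 (Reln), -0.24 to 0.74 (Nr4a1), -0.71 to 0.72 (Homer1), -0.11 to 0.57 (Klf9), -1.81 to 0.33 (mt-Atp6), -1.70 to 0.18 (mt-Cytb), -0.17 to 0.59 (Syt6), -0.074 to 0.43 (Crym), -0.42 to 0.023 (Zfpm2) and -0.43 to 0.10 (Garnl3). Mbp ranged from -2.34 to -1.55 and Cdh9 from -1.50 to -1.05.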
